A study of Mus musculus with 6 samples.

Results

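The genes described here encode subunits of the mitochondrial respiratory chain and ATP synthase, with some of their assembly factors and isoforms. They were chosen by symbol alone, as genes beginning with Nduf, Uqcr, Cox followed by a digit from 4 to 8, or Atp5, together with Sdha, Sdhb, Sdhc and Sdhd. This gave 89 genes of 19938 measured, of which 43 were assigned to complex I, 4 to complex II, 8 to complex III, 17 to complex IV and 17 to complex V. Expression was compared between 3 mouse osteosarcoma cell lines and 3 cultures of mouse osteoblasts, with 1 array per sample. The lines OS_493H, OS_494H and OS_716H each came from 1 primary bone tumour of a C57Bl6 mouse carrying Osx-Cre with floxed Rb and p53 alleles on both chromosomes (Rb fl/fl, p53 fl/fl). Osx-Cre expresses the recombinase from the Osterix promoter, which is active in the osteoblast lineage, so other cells of the mouse need not have lost either gene. The labels give a hip tumour and an age of 188 for OS_493H (female), a hip tumour and 190 for OS_494H (male), and a tibial tumour and 226 for OS_716H (female), with no unit of age. The osteoblast cultures were all KUSA4b10 cells, a single line of marrow stromal cells from C57Bl6 mice, kept for 21 days after confluence with 50 ug/ml ascorbate. Lines and cultures shared the basal medium and serum, and the labels give no floxed allele for KUSA4b10.

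The respiratory chain carries electrons from NADH and succinate to oxygen across the inner mitochondrial membrane. Complexes I, III and IV use this flow to pump protons, complex II feeds in electrons from succinate, and ATP synthase, called complex V, uses the returning protons to make ATP. Most subunits are encoded in the nucleus and a few in mitochondrial DNA. Several nuclear subunits of complex IV exist as a common form and a form restricted to tissues such as heart, skeletal muscle and brown fat, or to testis or lung.

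Expression is given on the log2 scale, where a difference of 1 is a 2-fold change. These values do not allow levels of different genes to be compared. Array medians lay between 7.45 and 7.58. Rb1, the targeted gene, was 9.26, 9.70 and 9.87 in OS_493H, OS_494H and OS_716H, against 10.68, 10.66 and 10.66 in cultures 1, 2 and 3. All lines were below all cultures, by 1.05 ± 0.15 (SE, adjusted p = 0.00427). OS_716H went against its label: the female-specific Xist RNA was 12.62, 5.31 and 5.50 in the 3 lines in the order above, and the Y-linked Kdm5d was 5.42, 8.85 and 8.92. The library labelled OS_716H thus resembled OS_494H, labelled male, in these genes, and results are also given without it where it decides them. The labels do not say whether the 3 cultures were grown separately, so p-values may measure only technical spread on that side. As a background for the counts below, 24.6% of all 19938 genes were called at an adjusted p under 0.05, with 13.2% higher and 11.4% lower in the lines.

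Most respiratory chain genes were not called, and those that were called were more often higher in the osteosarcoma lines. Of the 89 genes, 31 were called, which is 34.8%, and 24 of these rose and 7 fell in the lines. The median difference was 0.11 over the 89 genes and -0.02 over all genes. Respiratory chain genes are strongly expressed, and of the 5685 genes whose higher group mean exceeded 9.88, the upper quartile of gene values, 44.9% were called. The share of respiratory chain genes called was thus between that of all genes and that of bright genes, which included 66 of the 89. The groups did not overlap for 49 of the 89 genes, with all lines above all cultures for 38 and below for 11. Groups that did not overlap were found for 41.5% of all genes. They were found for 3581 of the 5685 bright genes, a larger share than of the 89. Of the bright genes 1443 rose and 1110 fell, with a median difference of 0.05. The share that rose was thus close to that of the 89 genes, and the share that fell was larger. Changes were small: only Cox8b and Cox6a2 were called with a difference of at least 2-fold, both lower, where 6.88% of all genes were. The typical difference, without its sign, was 0.24 for these genes, 0.17 for all genes and 0.35 for bright genes. The number called was 25, 31 and 34 without OS_493H, OS_494H and OS_716H, where 19.4%, 25.3% and 24.7% of all genes were called, and 17, 20 and 19 without culture 1, 2 and 3, where 13.8%, 19.5% and 14.8% of all genes were. Fewer calls with an array left out were thus common to the whole table. The number that rose was 13 without culture 1 and 14 without culture 3, and the number that fell was 4 without OS_493H, culture 1 or culture 2. Without OS_716H, 27 rose and 7 fell. In all, 17 of the 31 calls, 13 higher and 4 lower, held at an adjusted p under 0.05 with each array left out in turn and under each other normalisation, filter or fit that was tried. Stricter thresholds, under which fewer genes were called, are not counted in this.

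**Figure D1:**
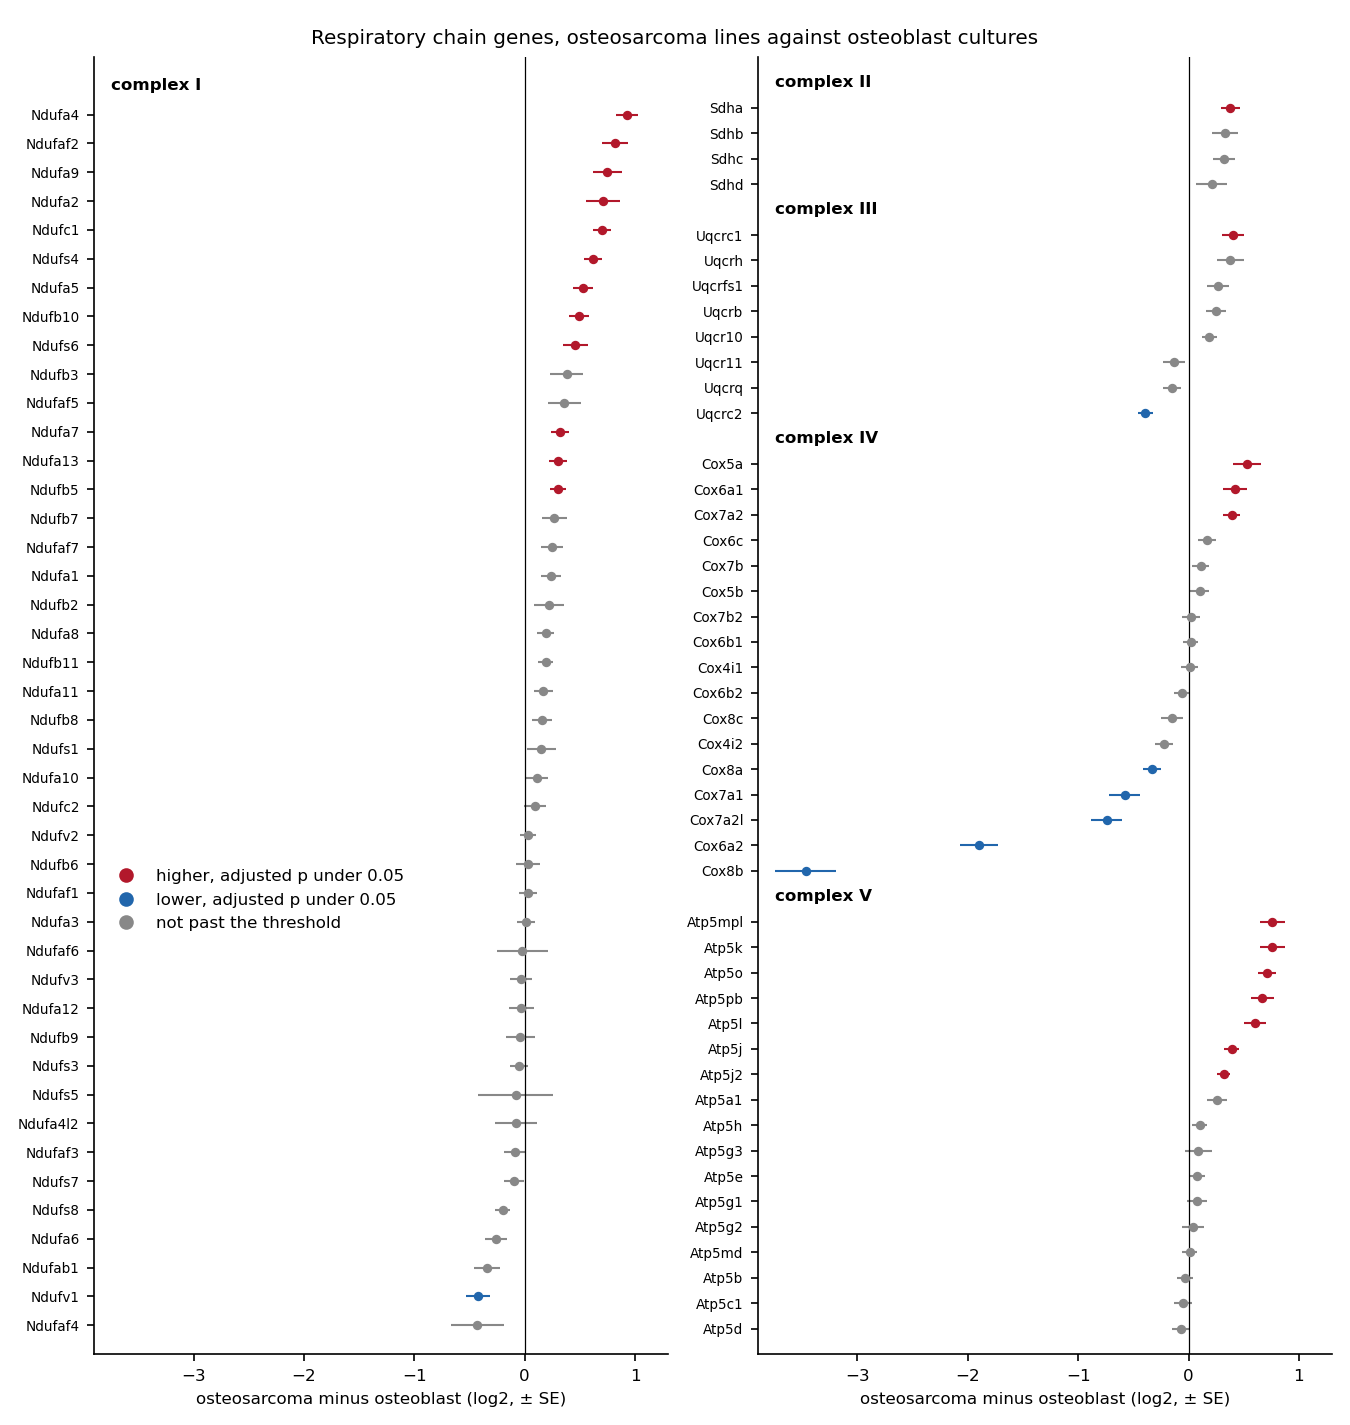
Log2 difference of osteosarcoma lines minus osteoblast cultures (horizontal axis, with SE) for each of the 89 genes, arranged by complex I to V, with genes called at an adjusted p under 0.05 marked by colour. Cox8b at -3.47 and Cox6a2 at -1.90 stand far to the left, and all other points lie between -0.74 and 0.93.

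In complex I, which takes electrons from NADH, 12 genes rose, 1 fell and 30 were not called, with a median difference of 0.16. The largest rise was that of Ndufa4, a small subunit once placed in complex I and now regarded as part of complex IV. Ndufa4 was 11.36, 11.29 and 11.23 in OS_493H, OS_494H and OS_716H, against 10.50, 10.21 and 10.38 in cultures 1, 2 and 3. The lines stood well above the cultures, by 0.93 ± 0.10 (SE, adjusted p = 0.00143). Ndufaf2, an assembly factor that joins the complex late and is not part of the finished enzyme, was 8.69, 8.94 and 8.50 in the lines, against 7.85, 7.96 and 7.86 in the cultures, a difference of 0.82 ± 0.12 (adjusted p = 0.00422). Ndufa9, which sits where the matrix arm meets the membrane arm, was 11.31, 11.68 and 11.38 in the lines, against 10.81, 10.81 and 10.51 in the cultures. All lines were higher, by 0.75 ± 0.13 (adjusted p = 0.00886). Ndufc1, a small membrane arm subunit, was 11.52, 11.70 and 11.54 in the lines, against 10.92, 10.91 and 10.85 in the cultures. Its groups were tight and separate, at 0.70 ± 0.08 apart (adjusted p = 0.00173). Ndufa2, a matrix arm subunit, was 11.46, 11.85 and 11.32 in the lines, against 10.74, 10.79 and 10.96 in the cultures. Its difference of 0.71 ± 0.15 (adjusted p = 0.0145) had an adjusted p of 0.0647 without culture 1.

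Most rises of complex I were of its accessory subunits, which surround the catalytic core and make up 28 of the 43 genes. Of 28 accessory subunits, 10 rose and none fell, with a median difference of 0.20, whereas of 6 core subunits measured none rose and 1 fell, with a median of -0.08. The difference between these sets was not tested. Of the accessory subunits 35.7% were called, against 24.6% of all genes and 44.9% of bright genes. Besides Ndufa9, Ndufa2 and Ndufc1, the accessory subunits that rose were Ndufs4 by 0.62 ± 0.08, Ndufa5 by 0.53, Ndufb10 by 0.49, Ndufs6 by 0.46, Ndufa7 by 0.32, Ndufa13 by 0.30 and Ndufb5 by 0.30. Ndufs4, a matrix arm subunit needed for a stable NADH-oxidising module, was 12.46, 12.52 and 12.37 in the lines, against 11.84, 11.88 and 11.78 in the cultures. Its 3 lines lay close together above the 3 cultures (adjusted p = 0.00228). The accessory subunits with the lowest differences were Ndufab1, the mitochondrial acyl carrier protein, at -0.34 (adjusted p = 0.0826) and Ndufa6 at -0.26 (adjusted p = 0.114), both with all lines below all cultures. Of the 7 Ndufaf genes measured, Ndufaf2 alone was called, and the lowest was Ndufaf4 at -0.43 (adjusted p = 0.261). Several of the smaller rises kept their size but lost their calls with an array left out. Ndufs6 had an adjusted p of 0.103, 0.0564 and 0.0771 without culture 1, 2 and 3, and 0.0667 after quantile normalisation. Ndufb5 had 0.0593, 0.0768, 0.0603 and 0.0853 without OS_493H and cultures 1, 2 and 3. Ndufa13 had 0.0868, 0.119, 0.0729 and 0.125 without the same 4 arrays. Ndufa7 had 0.0748 and 0.0575 without OS_493H and OS_716H, and 0.0764, 0.084 and 0.0962 without cultures 1, 2 and 3. Both Ndufa13 and Ndufa7 also lost their calls after quantile normalisation (0.0633 and 0.0849), after median centring (0.0561 and 0.0586) and with an intensity trend (0.0589 and 0.0543). Over complex I, 7, 8 and 8 genes were called without cultures 1, 2 and 3.

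The core subunits hold the flavin, the iron-sulphur clusters and the quinone site. Ndufv1, which binds the flavin and accepts the electrons of NADH, was 11.09, 11.38 and 11.08 in the lines, against 11.70, 11.55 and 11.56 in the cultures. It was the one core subunit that fell, by 0.42 ± 0.11 (SE, adjusted p = 0.0314). This call was lost without OS_493H (adjusted p = 0.0928), OS_716H (0.0739) and cultures 1 (0.12), 2 (0.0668) and 3 (0.0856). Ndufs8, an iron-sulphur subunit near the quinone site, was 12.06, 12.13 and 11.97 in the lines, against 12.27, 12.25 and 12.25 in the cultures. Its lines were all lower, but the difference of -0.20 was not called (adjusted p = 0.0927). Ndufs1, the largest iron-sulphur subunit, was 10.11, 10.46 and 10.06 in the lines, against 10.21, 9.99 and 10.00 in the cultures, a difference of 0.15 (adjusted p = 0.483). Ndufs3, of the quinone-reducing module, was 11.68, 11.71 and 11.55 in the lines, against 11.78, 11.61 and 11.70 in the cultures. Both genes had overlapping groups. Ndufs7, which carries the iron-sulphur cluster next to the quinone, was 13.26, 13.38 and 13.16 in the lines, against 13.46, 13.30 and 13.34 in the cultures. Ndufv2, the partner of Ndufv1 in the NADH-oxidising module, was 12.52, 12.56 and 12.51 in the lines, against 12.54, 12.48 and 12.46 in the cultures. These groups overlapped too, with differences of -0.10 for Ndufs7 and 0.03 for Ndufv2.

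Complex II, which oxidises succinate and is also an enzyme of the citric acid cycle, was higher in the lines for all 4 genes, with 1 called and a median difference of 0.33. Sdha, its flavin subunit and site of succinate oxidation, was 11.77, 11.99 and 11.84 in the lines, against 11.59, 11.46 and 11.43 in the cultures. It rose by 0.38 ± 0.09 (SE, adjusted p = 0.0236), and its adjusted p without cultures 1, 2 and 3 was 0.05, 0.0714 and 0.0944. Sdhb, the iron-sulphur subunit, was 11.19, 11.46 and 11.02 in the lines, against 10.85, 10.89 and 10.92 in the cultures. Sdhc, a membrane anchor, was 11.54, 11.78 and 11.50 in the lines, against 11.36, 11.23 and 11.28 in the cultures. In both, all lines lay above all cultures, by 0.33 (adjusted p = 0.0894) and 0.32 (adjusted p = 0.0555), short of a call. Sdhd, the other anchor, was 10.57, 10.99 and 11.06 in the lines, against 10.76, 10.56 and 10.66 in the cultures, and its groups overlapped. Without OS_716H 3 of the 4 genes were called, without OS_493H 2, and without any 1 culture none was.

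In complex III, which passes electrons from quinol to cytochrome c, the large matrix-facing core proteins moved in opposite directions. Uqcrc1 was 11.87, 12.21 and 11.98 in the lines, against 11.69, 11.61 and 11.54 in the cultures. Uqcrc2 was 11.86, 11.91 and 11.81 in the lines, against 12.31, 12.21 and 12.22 in the cultures. Neither gene had overlapping groups: Uqcrc1 rose by 0.40 ± 0.10 (SE, adjusted p = 0.0329) and Uqcrc2 fell by 0.39 ± 0.07 (adjusted p = 0.0091). The Uqcrc2 call held with each array left out, and that of Uqcrc1 was lost without OS_716H (adjusted p = 0.056) and cultures 1 (0.0792), 2 (0.0877) and 3 (0.121), and after median centring (0.0557). The other 6 genes were not called. Uqcrh, the hinge protein of cytochrome c1, differed by 0.38, Uqcrfs1, the Rieske iron-sulphur protein, by 0.27, Uqcrb by 0.25 and Uqcr10 by 0.19, each with all lines above all cultures. Uqcr11 and Uqcrq, small membrane subunits, differed by -0.13 and -0.15 with overlapping groups.

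Complex IV, cytochrome c oxidase, held the largest differences of the 89 genes, and they lay in its tissue-restricted isoforms. It had 3 genes that rose, 5 that fell and 9 not called, with a median difference of 0.01. Cox8b, the form of a small membrane subunit found in heart, skeletal muscle and brown or beige fat, was 6.75, 6.98 and 6.91 in OS_493H, OS_494H and OS_716H, against 10.87, 9.71 and 10.48 in cultures 1, 2 and 3. The lines averaged 6.88 ± 0.12 and the cultures 10.35 ± 0.59 (SD, n = 3 each), and no line came near a culture. The difference was -3.47 ± 0.28 (SE, adjusted p = 0.000754). The line values lie below 7.94, the median of gene values, and are not shown to exceed background, so no fold is given. Cox6a2, the heart and muscle form of another small subunit, was 8.28, 7.87 and 8.43 in the lines, against 10.16, 9.89 and 10.23 in the cultures. It averaged 8.19 ± 0.29 in the lines and 10.09 ± 0.18 in the cultures (SD, n = 3 each), a difference of -1.90 ± 0.17 (SE, adjusted p = 0.000949). The Cox6a2 value of OS_494H, 7.87, also lies below 7.94 and is not shown to exceed background, so no fold is given. Cox7a1, the heart and muscle form of yet another subunit, was 6.93, 7.05 and 7.32 in the lines, against 7.91, 7.61 and 7.53 in the cultures. It fell by 0.58 ± 0.14 (SE, adjusted p = 0.0263) with separate groups. All Cox7a1 values, in lines and cultures, lie below 7.94 and are not shown to exceed background. The calls of Cox8b and Cox6a2 held with each array left out, while the adjusted p of Cox7a1 was 0.077 and 0.0546 without OS_493H and OS_494H and 0.085 and 0.0587 without cultures 1 and 2. In RNA from a whole culture, fewer cells of a type and less RNA per cell cannot be told apart.

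Of the common counterparts of these isoforms, 2 rose and 1 fell. Cox6a1, the common form of Cox6a2, was 11.99, 11.95 and 12.30 in the lines, against 11.65, 11.70 and 11.64 in the cultures, and rose by 0.42 ± 0.11 (SE, adjusted p = 0.0319). Cox7a2, the common form of Cox7a1, was 11.67, 11.82 and 11.89 in the lines, against 11.40, 11.38 and 11.42 in the cultures, and rose by 0.39 ± 0.08 (adjusted p = 0.0149). Both pairs of groups were separate and ran opposite to the muscle forms, of which Cox7a1 is not shown to exceed background. Cox8a, the common form of Cox8b, was 12.47, 12.56 and 12.66 in the lines, against 12.93, 12.89 and 12.85 in the cultures. It fell by 0.33 ± 0.08 (adjusted p = 0.0247), a far smaller difference than that of Cox8b. These 3 genes kept differences of 0.41 to 0.46, 0.39 to 0.40 and -0.34 to -0.28 where an array left out cost them their calls. Cox6a1 had an adjusted p of 0.053 without OS_493H, 0.109, 0.0744 and 0.108 without cultures 1, 2 and 3, and 0.058 after quantile normalisation. Cox7a2 had 0.0632 and 0.056 without cultures 1 and 3, and Cox8a had 0.07 without OS_493H and 0.102, 0.0666 and 0.0736 without cultures 1, 2 and 3.

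None of the other isoforms of complex IV was called. Cox4i1, the common form of the largest nuclear subunit, was 10.96, 11.09 and 10.94 in the lines, against 11.05, 10.87 and 11.03 in the cultures. Cox4i2, its lung and low-oxygen form, was 7.61, 7.59 and 7.80 in the lines, against 7.94, 7.86 and 7.88 in the cultures. Cox4i1 overlapped, and Cox4i2 was lower in all lines but was not called (-0.22, adjusted p = 0.104). Cox6b1, a subunit facing the intermembrane space, was 11.94, 11.88 and 12.00 in the lines, against 11.96, 11.89 and 11.93 in the cultures. Its testis form Cox6b2 was 6.99, 6.96 and 7.13 in the lines, against 7.06, 7.09 and 7.09 in the cultures. Both overlapped, with differences of 0.02 and -0.06. Cox7b was 13.45, 13.35 and 13.28 in the lines, against 13.30, 13.18 and 13.26 in the cultures, and its testis form Cox7b2 was 5.41, 5.48 and 5.63, against 5.52, 5.45 and 5.51. Cox8c, a testis form of the Cox8 subunit, was 7.42, 7.46 and 7.70 in the lines, against 7.79, 7.64 and 7.61 in the cultures. Ndufa4l2, the low-oxygen relative of Ndufa4, was 7.08, 6.89 and 7.33 in the lines, against 6.91, 7.54 and 7.08 in the cultures. Both overlapped, with differences of -0.15 and -0.08. Of 8 tissue or condition isoforms, 3 fell and none rose, and of 7 common forms, counting Ndufa4, 3 rose and 1 fell. The median difference was -0.19 for the tissue forms and 0.11 for the common forms. Of the common forms, 1 rose and none fell without culture 1 or culture 3.

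**Figure D2:**
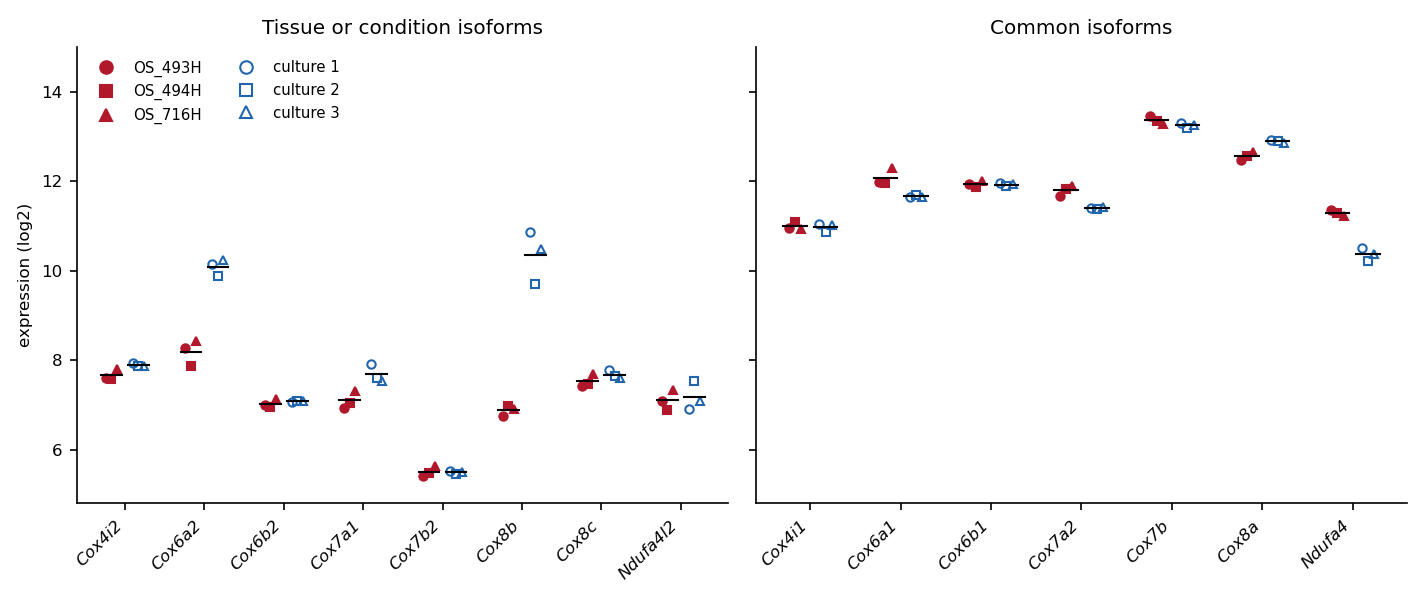
Log2 expression (vertical axis) of the tissue or condition isoforms and of the common isoforms in each array, with osteosarcoma lines to the left of osteoblast cultures for each gene and bars at the group means. The points of Cox8b lie between 6.75 and 6.98 in the lines and between 9.71 and 10.87 in the cultures, and for most other genes the groups lie close together.

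Outside the isoform pairs, Cox7a2l, which stabilises supercomplexes of complexes III and IV, was 9.41, 9.41 and 9.85 in the lines, against 10.28, 10.20 and 10.41 in the cultures. It fell by 0.74 ± 0.14 (SE, adjusted p = 0.0109), with all lines below all cultures, and its other probe set gave -0.43 (adjusted p = 0.0324 over all probe sets). Cox5a, a subunit facing the matrix, was 10.93, 11.38 and 11.17 in the lines, against 10.77, 10.57 and 10.57 in the cultures. It rose by 0.53 ± 0.13 (adjusted p = 0.0278), a call lost without OS_716H (0.0611) and cultures 1 (0.0562), 2 (0.0867) and 3 (0.102). Cox6c and Cox5b differed by 0.17 and 0.10 and were not called. Over the 17 genes of complex IV, 5 were called without OS_493H and 3, 4 and 4 without cultures 1, 2 and 3.

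The promoters of Cox8b and Cox7a1, which fell, are shown beside those of Cox8a and Cox6a1, common forms, and of Ndufc1, an accessory subunit of complex I that rose. They are RefSeq windows on GRCm38.p6, from 250 bases before to 50 bases after the transcription start, printed 5′ to 3′ on the strand of the gene, with capitals marking the motifs searched.
Cox8b (chr7:140900397-140900696, minus strand): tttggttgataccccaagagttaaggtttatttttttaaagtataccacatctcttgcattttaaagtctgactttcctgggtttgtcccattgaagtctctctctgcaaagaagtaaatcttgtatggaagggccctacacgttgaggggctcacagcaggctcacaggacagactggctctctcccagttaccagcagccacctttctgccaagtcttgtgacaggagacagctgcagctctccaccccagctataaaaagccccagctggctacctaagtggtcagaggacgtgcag
Cox7a1 (chr7:30183921-30184220, plus strand): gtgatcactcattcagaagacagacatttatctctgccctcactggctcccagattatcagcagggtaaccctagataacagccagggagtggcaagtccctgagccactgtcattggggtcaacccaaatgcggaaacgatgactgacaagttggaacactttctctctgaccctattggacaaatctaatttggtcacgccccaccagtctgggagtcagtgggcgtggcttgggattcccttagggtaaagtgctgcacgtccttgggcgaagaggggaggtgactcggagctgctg
Cox8a (chr19:7217567-7217866, minus strand): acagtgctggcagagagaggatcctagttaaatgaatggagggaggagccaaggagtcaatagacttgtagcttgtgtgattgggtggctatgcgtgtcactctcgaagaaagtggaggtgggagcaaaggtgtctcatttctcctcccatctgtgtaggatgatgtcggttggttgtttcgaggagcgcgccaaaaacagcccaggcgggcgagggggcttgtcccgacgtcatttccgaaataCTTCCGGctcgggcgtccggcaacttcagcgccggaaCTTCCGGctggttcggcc
Cox6a1 (chr5:115348909-115349208, minus strand): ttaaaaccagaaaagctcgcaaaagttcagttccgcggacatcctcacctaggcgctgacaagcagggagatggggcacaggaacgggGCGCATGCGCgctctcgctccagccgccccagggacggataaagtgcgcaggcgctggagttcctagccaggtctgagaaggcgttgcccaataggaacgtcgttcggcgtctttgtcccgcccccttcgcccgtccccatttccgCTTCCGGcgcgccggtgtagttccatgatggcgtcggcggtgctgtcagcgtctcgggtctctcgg
Ndufc1 (chr3:51408906-51409205, minus strand): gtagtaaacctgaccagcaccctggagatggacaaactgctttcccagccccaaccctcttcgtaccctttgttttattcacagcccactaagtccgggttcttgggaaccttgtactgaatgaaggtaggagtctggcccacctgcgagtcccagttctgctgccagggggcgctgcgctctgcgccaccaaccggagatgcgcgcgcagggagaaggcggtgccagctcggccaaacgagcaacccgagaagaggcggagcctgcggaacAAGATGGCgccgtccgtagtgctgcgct
The motifs were GCGCATGC for NRF1, CCGGAAG for ETS factors such as GABP, AAGATGGC for YY1 and AAGGTCA for ESRRA, each searched on both strands. NRF1, GABP, YY1 and ESRRA are known regulators of nuclear respiratory genes. The Cox8b and Cox7a1 windows held none of these letters. The Cox8a window held the ETS letters at 2 places, on the opposite strand. The Cox6a1 window held the NRF1 letters on both strands in 1 overlapping run, and the ETS letters on the opposite strand, and the Ndufc1 window held the YY1 letters. Windows were found for 73 of the 89 genes, with 1 or 2 windows a gene and 78 in all. Of these, 15.4% held the NRF1 letters, 23.1% the ETS letters, 12.8% the YY1 letters and 8.97% the ESRRA letters, against 2.71%, 8.86%, 2.75% and 4.72% of all 32851 windows. Base composition differed as well, with a median of 19.5 CpG in respiratory chain windows and 7 in all windows. The 4 windows of tissue isoforms, those of Cox8b, Cox7a1 and the uncalled Cox6b2 and Cox7b2, held none of the 4 motifs. They had a median of 8.5 CpG. Cox6a2 had no window, and 4 windows are too few to set beside the shares above. The YY1 letters were in 7 of 25 windows of genes that rose, none of 5 windows of genes that fell and 3 of 48 windows of genes not called. The other motifs did not show this split: the NRF1 letters were in 16% of windows of genes that rose and 16.7% of those not called, the ETS letters in 16% and 27.1%, and the ESRRA letters in 8% and 10.4%. YY1 is singled out after its values were seen, with no test. A match describes letters in the window and not a working site.

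Markers of fat cells moved in the same direction as Cox8b, Cox6a2 and Cox7a1. Of 15 fat cell markers measured, 13 fell in the lines, and their mean level was 7.56 to 7.90 in the lines and 10.15 to 10.82 in the cultures. Adiponectin (Adipoq), a hormone made by fat cells, was 5.88, 6.13 and 5.79 in the lines, against 12.42, 11.50 and 11.71 in the cultures. The fatty acid transporter Cd36, at -5.23, the hormone resistin (Retn), at -4.76, and Gpd1, which supplies glycerol phosphate for fat synthesis, at -4.46, fell as well. The groups were far apart for Adipoq, Cd36, Retn and Gpd1. Of 12 muscle markers, Acta1, skeletal muscle actin, rose by 0.34 and none fell, and their mean level was 7.06 to 7.14 in the lines and 7.05 to 7.14 in the cultures. Acta1 had an adjusted p of 0.0558 and 0.0677 without cultures 1 and 3. Muscle creatine kinase (Ckm) was 7.37, 7.48 and 7.44 in the lines, against 7.53, 7.57 and 7.47 in the cultures, with groups that overlapped at their edges. Among the cultures, culture 1 was highest and culture 2 lowest for Cox8b, but not for Cox6a2, which was highest in culture 3, nor for Cox7a1, which was lowest in culture 3. The order of Cox8b also held for 11 of the 15 fat cell markers (73.3%), 32 of the 89 respiratory chain genes (36%) and 19.7% of all genes. The heat-producing uncoupler of brown fat, Ucp1, was 5.80, 5.83 and 6.08 in the lines, against 5.82, 5.82 and 5.73 in the cultures, with a difference of 0.11 (adjusted p = 0.48). The part of fat cells in the Cox8b, Cox6a2 and Cox7a1 results was not tested.

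Of 9 osteoblast markers, 4 fell and none rose, with mean levels of 9.72 to 10.37 in the lines and 11.82 to 12.56 in the cultures. Bone sialoprotein (Ibsp), a matrix protein of mature osteoblasts, was 6.60, 6.40 and 8.20 in the lines, against 13.10, 13.67 and 12.91 in the cultures. Collagen Col1a1 was 13.39, 12.81 and 13.55 in the lines, against 13.20, 13.77 and 12.98 in the cultures, and alkaline phosphatase (Alpl) was 9.73, 10.29 and 12.41, against 11.83, 13.03 and 11.72. Col1a1 and Alpl overlapped. Phex, at -4.73, Dmp1, at -4.36, and Pth1r, at -1.71, also fell, and the adjusted p of Pth1r, 0.0497, exceeded 0.05 under 7 of the other settings, where it reached 0.14. Culture 2 was highest for 8 of the 9 osteoblast markers (88.9%), against 37.6% of all genes. Of 11 macrophage and osteoclast markers, Acp5 rose by 0.86 and Ctsk fell by 1.65, with mean levels of 6.86 to 7.01 in the lines and 6.94 to 7.10 in the cultures. Ctsk had an adjusted p of 0.053 without culture 1. The leucocyte marker Ptprc was 6.15, 6.06 and 6.31 in the lines, against 6.26, 6.26 and 6.28 in the cultures.

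**Figure D3:**
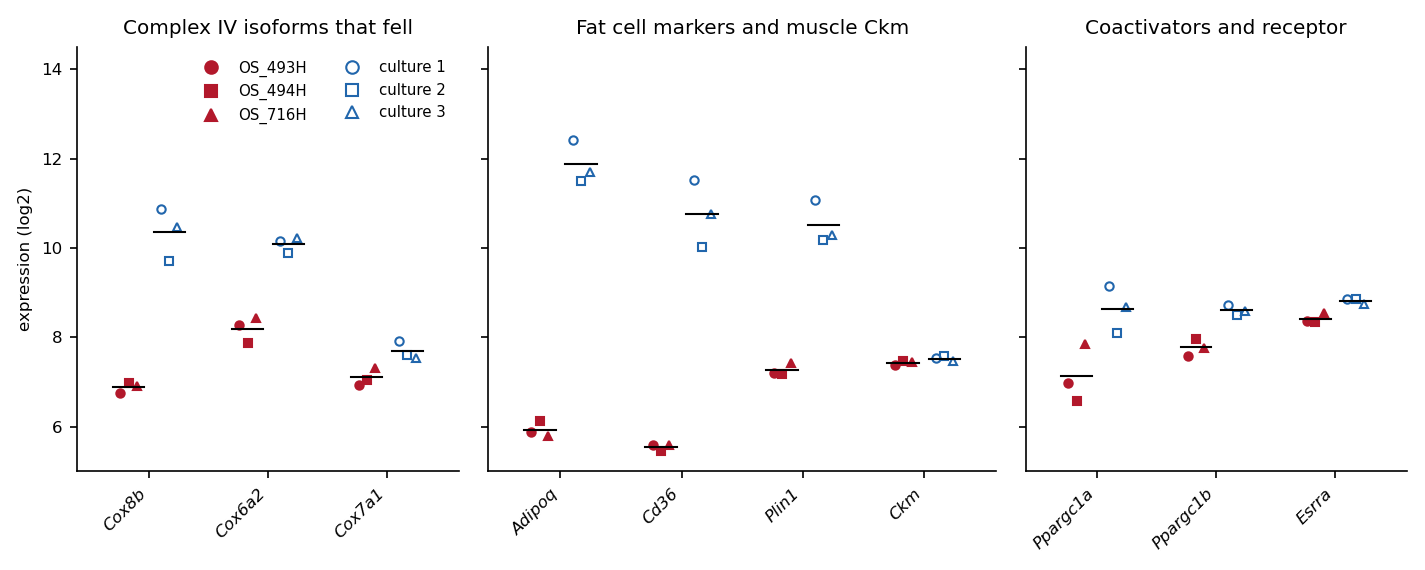
Log2 expression (vertical axis) in each array of the complex IV isoforms that fell, of fat cell markers with muscle Ckm, and of coactivators and a receptor that act on respiratory genes, with osteosarcoma lines left of osteoblast cultures and bars at the group means. Adipoq lies at 5.79 to 6.13 in the lines and 11.50 to 12.42 in the cultures, and Ckm at 7.37 to 7.48 in the lines and 7.47 to 7.57 in the cultures.

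In complex V, ATP synthase, 7 genes rose, none fell and 10 were not called, with a median difference of 0.10. The rises were in the peripheral stalk and the small membrane subunits and not in the head, called F1. Atp5mpl, a small membrane proteolipid, was 10.87, 11.13 and 10.72 in the lines, against 10.14, 10.09 and 10.20 in the cultures. Atp5k, subunit e at the interface of enzyme dimers, was 9.78, 10.08 and 9.79 in the lines, against 9.08, 9.04 and 9.26 in the cultures. Both rose with clear gaps, each by 0.76 ± 0.11 (SE), with adjusted p = 0.00463 and 0.00415. Atp5o, the protein that joins the stalk to the head, was 11.89, 12.00 and 11.84 in the lines, against 11.16, 11.26 and 11.17 in the cultures. Its groups were narrow, at 0.71 ± 0.08 apart (adjusted p = 0.0016). Atp5pb, the membrane-anchored stalk subunit b, was 12.15, 12.39 and 12.13 in the lines, against 11.63, 11.47 and 11.55 in the cultures, 0.67 ± 0.10 higher (adjusted p = 0.004). Atp5l, subunit g, was 9.80, 10.02 and 10.08 in the lines, against 9.43, 9.23 and 9.42 in the cultures. It rose by 0.60 ± 0.10 (adjusted p = 0.00754), and its 6 probe sets gave differences from 0.60 to 0.71. These probe sets name the same gene and are not independent observations. Atp5j, stalk coupling factor, and Atp5j2, membrane subunit f, rose by 0.39 and 0.32. Only Atp5j2 lost its call with an array left out, at an adjusted p of 0.0546 without culture 1 and 0.0593 without culture 3.

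The genes were grouped by part of the enzyme with these values known, and the grouping was not tested. In the peripheral stalk 3 of 4 genes rose, with a median difference of 0.53. The other, Atp5h, differed by 0.10 and was not called (adjusted p = 0.366). Of the small membrane subunits 4 of 5 rose, with a median of 0.60 and Atp5md at 0.01 as the exception. The 5 genes grouped as the F1 head, not all of them catalytic, had no call and a median of -0.03. Atp5a1, the alpha subunit, differed by 0.26 (adjusted p = 0.0801), and Atp5b, Atp5c1, Atp5d and Atp5e lay between -0.07 and 0.08. The rotating ring of the enzyme is built of subunit c, which 3 genes encode as the same mature protein. Atp5g1 was 12.88, 13.11 and 12.83 in the lines, against 12.83, 12.88 and 12.88 in the cultures. Atp5g2 was 12.45, 12.23 and 12.57 in the lines, against 12.41, 12.38 and 12.36 in the cultures. Atp5g3 was 12.54, 12.74 and 12.31 in the lines, against 12.55, 12.41 and 12.35 in the cultures. All overlapped, with differences of 0.08, 0.04 and 0.09, and the lines ranged more widely than the cultures for Atp5g1, Atp5g2 and Atp5g3.

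**Figure D4:**
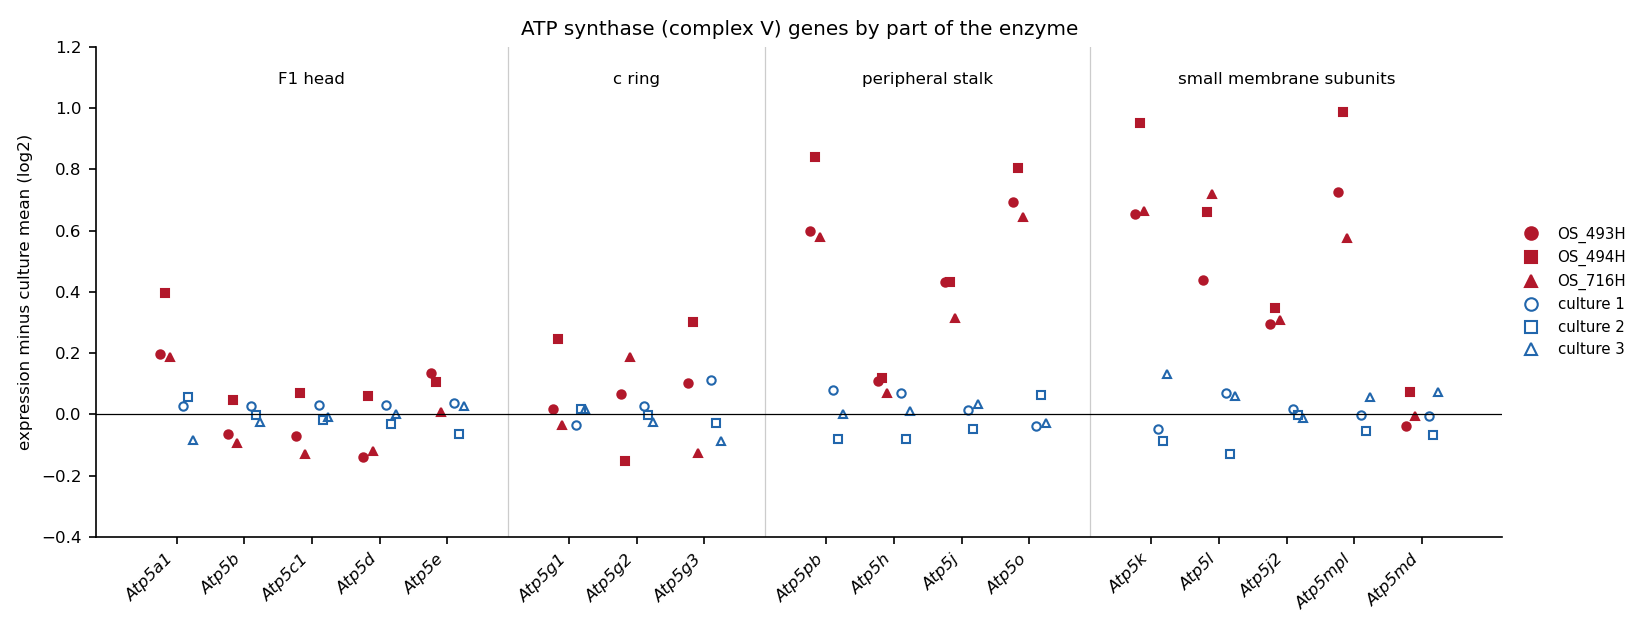
Log2 expression minus the mean of the cultures (vertical axis) for each ATP synthase gene in each array, grouped by part of the enzyme, with osteosarcoma lines left of osteoblast cultures. The lines lie above the cultures for 4 of 4 peripheral stalk genes, in Atp5h by only 0.10, and for 4 of 5 small membrane subunits. Most genes of the F1 head and ring lie around 0. Groups that did not overlap, in either direction, were found for 41.5% of all genes.

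Genes that build or supply the chain moved in both directions. Of 31 other assembly factors measured, 4 rose and 3 fell. Sdhaf4, which helps to insert the flavin subunit into complex II, was 8.26, 8.27 and 7.81 in the lines, against 6.83 to 7.09 in the cultures, 1.14 ± 0.15 (SE) higher (adjusted p = 0.00279). This difference ran from 0.51 to 1.29 under the alternatives. The Sdhaf4 values of OS_716H and of the cultures lie below 7.94, the median of gene values, and are not shown to exceed background. Uqcc3, a factor for complex III, was 8.24, 7.98 and 8.43 in the lines, against 9.31, 9.16 and 9.03 in the cultures, -0.95 ± 0.13 (adjusted p = 0.00362). Acad9, a complex I assembly factor related to fatty acid dehydrogenases, rose by 0.86 ± 0.12 (adjusted p = 0.00333), and its groups, like those of Sdhaf4 and Uqcc3, were separate. Sdhaf1, a complex II factor, fell by 0.61 ± 0.15 (adjusted p = 0.0268), and its adjusted p was 0.0618 without OS_493H and 0.103, 0.0779 and 0.0638 without cultures 1, 2 and 3. After quantile normalisation 3 of the 31 factors rose and 7 fell, after median centring 3 and 6, and with array weights 6 and 7. The balance of directions thus depended on the scaling and on the weighting of arrays, and also on the arrays used. Without OS_494H 3 rose and 7 fell, without OS_716H 6 rose and 3 fell, without OS_493H 2 fell, without culture 1 or 2 there were 2 that rose and 2 that fell, and without culture 3 there were 3 and 2. Of 16 electron carriers and entry points, Etfdh, which passes electrons of fatty acid oxidation to ubiquinone, rose by 0.64 ± 0.09 (adjusted p = 0.00379). Coq8a, a kinase-like protein of ubiquinone synthesis, fell by 0.37 ± 0.10 (adjusted p = 0.0328), with an adjusted p of 0.095 and 0.0736 without OS_493H and OS_716H and 0.126, 0.0826 and 0.0754 without cultures 1, 2 and 3. Of the 16, 3 rose and none fell without OS_716H, 1 rose and 3 fell without OS_494H, and 3 rose and 1 fell with array weights.

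Regulators of respiratory genes and of mitochondrial DNA were more often lower, with 1 of 17 higher and 5 lower. Ppargc1a, the coactivator known for driving mitochondrial growth in muscle and brown fat, was 6.97, 6.57 and 7.85 in the lines, against 9.14, 8.10 and 8.68 in the cultures. It fell by 1.51 ± 0.38 (SE, adjusted p = 0.0304), a call lost without OS_493H (0.0888), OS_494H (0.0568), culture 1 (0.106) and culture 3 (0.0983). Its relative Ppargc1b was 7.59, 7.96 and 7.77 in the lines, against 8.72, 8.51 and 8.58 in the cultures, and fell by 0.83 ± 0.11 (adjusted p = 0.00355). Twnk, the mitochondrial DNA helicase, fell by 0.69 ± 0.13 (adjusted p = 0.00901), and Ssbp1, its single-strand binding partner, rose by 0.50 ± 0.11 (adjusted p = 0.0207). Ssbp1 had an adjusted p of 0.0655 without OS_493H, 0.0772, 0.068 and 0.0588 without cultures 1, 2 and 3, and 0.0669 with the mean of its probe sets. Esrra, a nuclear receptor that works with these coactivators, fell by 0.40 (adjusted p = 0.0168) and Polg, the mitochondrial DNA polymerase, by 0.36 (adjusted p = 0.022). The Esrra call was lost without OS_493H (0.0543) and cultures 1 (0.0755) and 2 (0.0557), and the Polg call without OS_493H (0.067), OS_716H (0.0505) and cultures 1 (0.0775), 2 (0.0658) and 3 (0.0794). Over the 17 genes, 8 fell after quantile normalisation or with array weights, 7 without OS_494H and 2, 2 and 3 without OS_493H, culture 1 and culture 3. The 2 genes of mitochondrial DNA analysed here, ND3 of complex I and COX2 of complex IV, were both lower. ND3 was 13.32, 13.37 and 13.26 in the lines, against 13.65, 13.63 and 13.66 in the cultures, and COX2 was 13.59, 13.65 and 13.67, against 13.83, 13.88 and 13.89. ND3 fell by 0.33 ± 0.07 (adjusted p = 0.0146), with 0.0651 and 0.0649 without cultures 1 and 3. COX2 fell by 0.23 ± 0.07 (adjusted p = 0.0467), but the adjusted p lay between 0.0596 and 0.154 with each array left out and was 0.261 after quantile normalisation.

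Spread was wider among the lines than among the cultures. The median SD of the 89 genes was 0.14 over lines and 0.06 over cultures, against 0.13 and 0.09 for all genes. OS_494H was the highest of the 3 lines for 56 of the 89 genes (62.9%), against 39.9% of all genes and 49.1% of bright genes. OS_716H was the lowest for 52 (58.4%), against 32.8% of all genes and 45.1% of bright genes. The widest spread was that of Ndufs5, an accessory subunit of complex I, at 9.72, 9.64 and 8.42 in OS_493H, OS_494H and OS_716H. Ndufaf4, a complex I assembly factor, followed at 9.17, 9.48 and 8.47, and Ndufaf6, another, at 7.84, 8.46 and 7.51. OS_716H was the lowest in each. These 3 genes lie on chromosome 4, and all 6 respiratory chain genes there (also Ndufb6, Sdhb and Uqcrh) were lower in OS_716H than the mean of the other lines, by a median deviation of -0.47 and between -1.26 and -0.29. Other genes of a chromosome are here only those with a mean above the median of gene values. The respiratory chain genes were not filtered in this way. The 617 other genes of chromosome 4 had a median deviation of -0.21 in OS_716H, where the medians of other genes ran from -0.24 to 0.11 over all chromosomes. In OS_494H the 4 genes of chromosome 15 had a median deviation of -0.29, with -0.20 for the 405 other genes. In OS_493H the 6 genes of chromosome 9 had a median deviation of -0.24, with -0.12 for the 568 other genes. These chromosomes were picked after the values were seen, and others differed. In OS_716H the 2 genes of chromosome 12 lay at -0.28 and 0.26, with a median of -0.24 for the other genes. The 7 genes of chromosome 17 had -0.15 in OS_494H, with 0.06 for the other genes. On chromosome 12 in OS_493H the medians were -0.11 and 0.06. A link to chromosome was not tested.

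**Figure D5:**
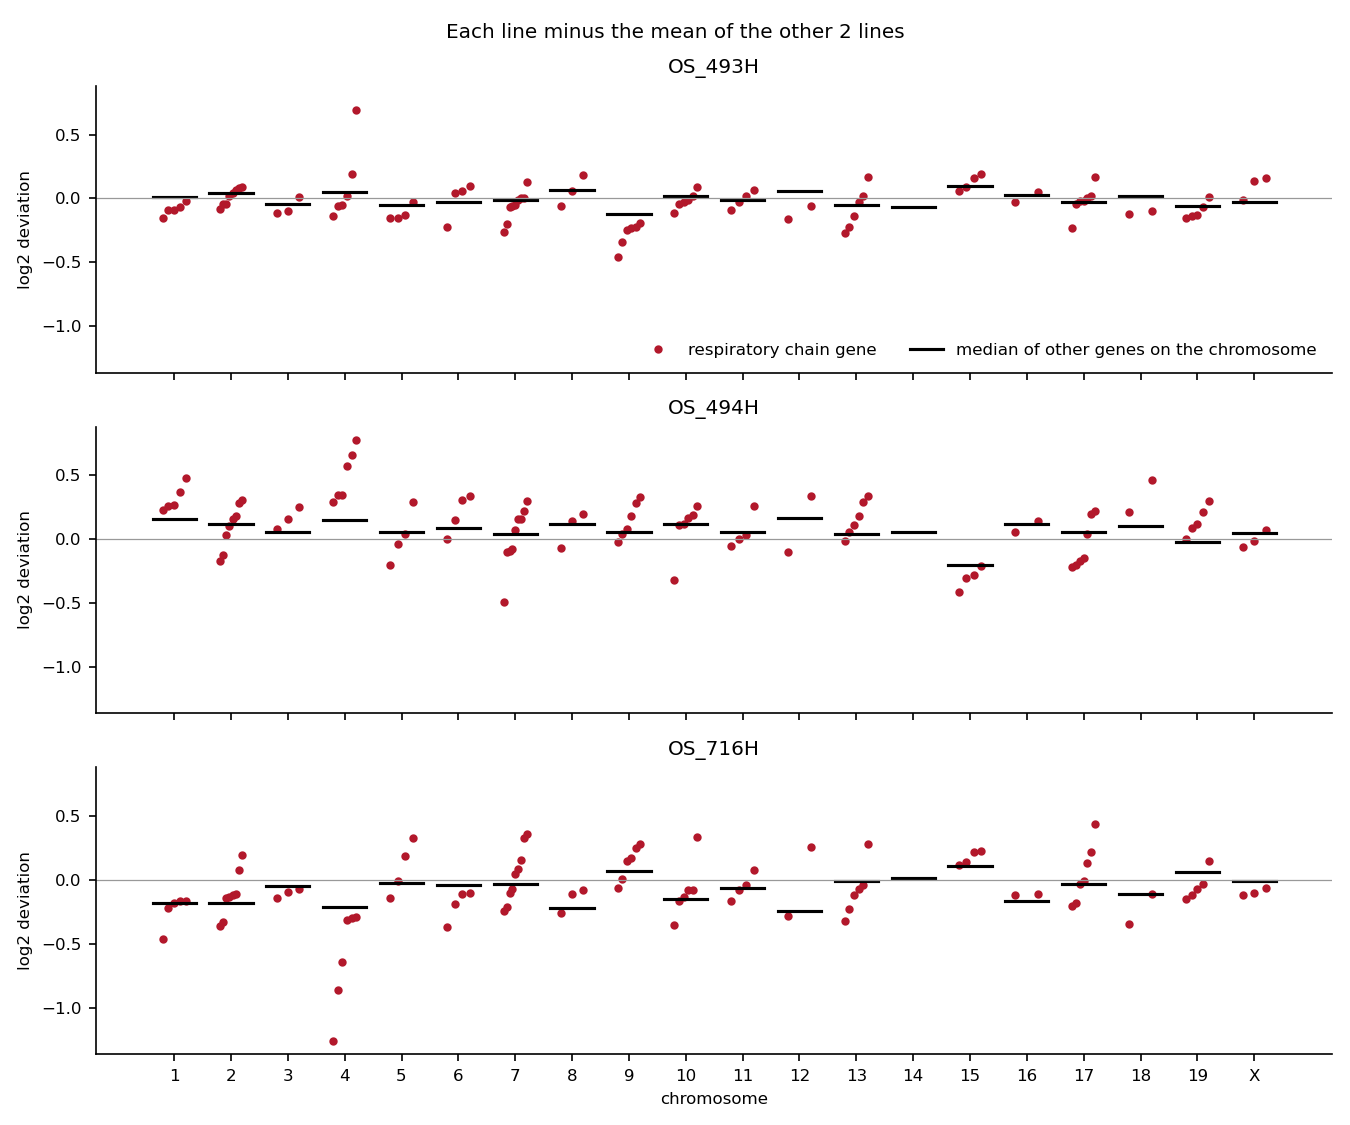
Deviation of each line from the mean of the other 2 lines (log2, vertical axis) by chromosome (horizontal axis), with a panel per line. Points are respiratory chain genes, and short lines the median of the other genes of that chromosome with a mean above the median of gene values. The chromosome 4 points of OS_716H lie between -1.26 and -0.29, with a median of -0.47.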

How the data were processed

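RNA was measured on Affymetrix Mouse Gene ST arrays of 1 colour, with 1 array for each of the 6 samples. The authors deposited log2 expression values for 35556 probe sets, from 3.04 to 14.88, made with RMA against mm9, per the submitters' processing notes. RMA corrects background, equalises the distributions of the arrays and summarises probes. It flattens large differences and gives no call of presence or absence. The software version is not given in the sources used here. All columns matched a sample (0 left over).

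Probe sets with 1 gene symbol in the platform annotation (21789) were used, and 1621 with several and 12146 not listed were not. Per gene, the brightest probe set by its mean of 6 arrays was kept, which left 19938 genes. All 89 respiratory chain genes were found in RefSeq by gene identifier, with the same symbol, and 17 had several probe sets. Promoter windows are RefSeq's on GRCm38.p6, and no coordinates were set beside those of mm9.

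A two-sided limma fit (version 3.58.1, R 4.3.3, lmFit then eBayes, defaults kept) with no covariate compared the groups. Every difference subtracts the osteoblast mean from the osteosarcoma mean and has limma's SE. Adjusted p-values are Benjamini-Hochberg values over the 19938 genes, and calls were made below 0.05. The fit was tested on simulated data. The precision is limited by 3 arrays per group. No 2 arrays were the same: at most 24 probe sets had identical values on a pair of arrays.

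Genes given with values in each sample were up to 5 called genes per complex with the largest difference, all of complex II, the complex I core, the isoform pairs and the subunit c genes. From the other lists up to 4 called genes with the largest difference were named, or the 2 largest as values, beside a few defining markers. Other genes that the text names were singled out after their values were seen. The 89 genes and all lists were chosen with earlier results of these data known, and Trp53 and scan dates were not analysed here. The alternatives tried were leaving out each array in turn, array weights, median centring, quantile normalisation, averaging a gene's probe sets, a filter to brighter genes, robust moderation, an intensity trend, a 2-fold minimum, an adjusted p under 0.01 and another assignment to complexes.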

Additional observations from a re-analysis of the deposited data

Results flagged for a closer look

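Not counted above were 3 probe sets that were set aside because they name 2 genes, Cox7c, a small complex IV subunit, and the predicted gene Gm12338. On all 3 of them each osteosarcoma line was above each osteoblast culture, by 0.11, 0.12 and 0.07 on the log2 scale. The 3 name the same genes and are not independent observations. Of all 19938 genes, 4088 had all lines above all cultures, and the typical difference without its sign was 0.17, larger than these. The first read 13.36, 13.42 and 13.35 in OS_493H, OS_494H and OS_716H, against 13.28, 13.23 and 13.31 in cultures 1, 2 and 3. These differences were not tested, and the probes cannot tell the 2 genes apart. The other shared probe sets had overlapping groups: the one for Ndufs5 and Ndufs5-ps differed by 0.34, and those for Ndufb4 and Ndufb4b by 0.25 and 0.22.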

How the results depend on the processing

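No called gene changed direction under an alternative, but genes that were not called did: Atp5b ran from -0.08 to 0.09, Atp5d from -0.13 to 0.05, Atp5g2 from -0.04 to 0.13, Cox4i1 from -0.06 to 0.05, Ndufs5 from -0.31 to 0.35 and Col1a1 from -0.23 to 0.16, among others. Against 31 genes called (24 higher, 7 lower), 15 (12 and 3) had an adjusted p under 0.01, where 12.4% of all genes did, and 2 (0 and 2) a change of at least 2-fold, where 6.88% did. Leaving out 1 array gave 17 to 34 called, 13 to 27 higher and 4 to 7 lower, with 13.8% to 25.3% of all genes called. By complex, leaving out 1 array gave 7 to 14 called in complex I, 0 to 3 in II, 1 to 3 in III, 3 to 8 in IV and 6 to 7 in V. At an adjusted p under 0.01 complexes I to IV had 6, 0, 1 and 2 genes called, and at 2-fold complex IV had 2 and the others 0. Complex II had 2 called among brighter genes and 3 with array weights, and complex III had 1 with median centring and 4 with array weights. Quantile normalisation gave 29 called (25.6% of all genes), array weights 39 (31.1%), and counting Ndufa4 and Ndufa4l2 in complex IV without the Ndufaf genes gave 30 of 82. No paired analysis was possible because only the cultures carry replicate numbers. The design has 3 arrays per group, 1 array per tumour line and 1 osteoblast line, so line, culture medium additions, growth state and tumour cannot be told apart. RMA values have no detection call, so low values such as Cox7b2 may be background.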

Other observations

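Other mitochondrial genes were also compared. Of 18 genes of the outer membrane and protein import, 6 rose in the osteosarcoma lines and none fell, with a median difference of 0.28. Timm17b, a channel subunit of the inner membrane translocase, was 10.92, 10.97 and 11.26 in OS_493H, OS_494H and OS_716H, against 9.74, 9.98 and 9.95 in cultures 1, 2 and 3, a difference of 1.16 ± 0.12 (SE, adjusted p = 0.0014). Its relative Timm17a rose by 0.75 (adjusted p = 0.00624), and Tomm6 and Tomm5, small subunits of the outer membrane translocase, each by 0.64 (adjusted p = 0.00284 and 0.0219). The Tomm5 call was lost without OS_493H (adjusted p = 0.0694) and cultures 1 (0.0862), 2 (0.0526) and 3 (0.0777). Without OS_716H 9 of the 18 genes rose, with array weights 9 rose and 1 fell, and without OS_493H or any 1 culture 4 did.

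Of 15 genes of fatty acid beta oxidation, 2 rose and 4 fell. Ech1, an enoyl isomerase, was 10.34, 9.90 and 10.29 in the lines, against 11.17, 11.06 and 10.98 in the cultures, -0.89 ± 0.13 (SE, adjusted p = 0.0044). Slc25a20, the carnitine carrier, rose by 0.55 (adjusted p = 0.00462), while Decr1 and Echs1 fell by 0.53 (adjusted p = 0.0135) and 0.45 (adjusted p = 0.0146). Decr1 had an adjusted p of 0.0619 and 0.0512 without cultures 1 and 3, and Echs1 of 0.0571 without culture 1. Without culture 1, 1 gene rose and 1 fell, and without culture 3, 1 rose and 2 fell. Of 17 genes of pyruvate dehydrogenase and the citric acid cycle with pyruvate carboxylase, only the last, Pcx, was called. It was 9.16, 9.89 and 9.34 in the lines, against 11.57, 10.83 and 11.29 in the cultures, -1.77 ± 0.25 (adjusted p = 0.00368), and its cultures had the same order as those of Cox8b. Fh1, fumarate hydratase, differed by 0.41 (adjusted p = 0.149). Of 5 carriers and uncoupling proteins, Slc25a3, the phosphate carrier, fell by 0.24 (adjusted p = 0.0338), and its adjusted p was 0.0533 to 0.116 with each array left out.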
